A study of Mus musculus with 8 samples.

Results

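H3K4me3 was examined at genes whose promoter is marked at more than one place. A gene was included when the peak list held at least 2 peaks within 1 kb of an annotated transcript start of that gene, on the same chromosome, with the outermost peak starts at least 1000 bp apart. The rule was met by 1295 of the 15394 genes with a promoter peak, and these genes held 2958 of the 35486 listed peaks. Peaks were numbered along each gene, promoter 1 being the most upstream. The cells were tumor cells sorted from the lungs of KL mice (Lkb1fl/fl) and of KLG4m/m mice (Lkb1fl/fl with Gpx4m/m), with 2 libraries per group, labelled WT and CKO by the depositors. Both groups carried floxed Lkb1 (Stk11) and the same tumor-driving background, were infected by the nose with Ad-Cre at 8 to 10 weeks of age and received tamoxifen, and were taken 10 weeks after infection, so tamoxifen and Cre do not separate them. In the m allele, Gpx4 is flanked by rox sites and carries a Cre-activated DreERT2 under the CAG promoter, so that Gpx4 is deleted, once tamoxifen is given, in cells in which Cre has acted. The libraries of a group are separate samples. The edgeR p-values rest on the spread between libraries, which edgeR estimates in part from all listed peaks together. They do not measure the spread at 1 peak alone.

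Many genes can start transcription at more than one place. A start far upstream and a start inside the gene yield transcripts with different first exons, and where a first exon is coding the proteins can differ at their amino end. Trimethylation of histone H3 at lysine 4 (H3K4me3) marks nucleosomes around active and poised starts, so its level at each promoter of a gene can be followed separately. CpG-rich promoters are commonly marked in most cell types, while CpG-poor promoters are more often restricted to a tissue. Runx1 is a well-known case, with a distal promoter (P1) and a CpG-rich proximal promoter (P2) that are used at different stages of blood formation.

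The promoter sequences of 4 of the genes in which the promoters changed by different amounts are shown first, because they show how unlike promoters of one gene can be. They were picked after their values were seen. They are RefSeq windows of 300 bases (GRCm38.p6), from 250 bases before to 50 bases after a transcript start, 5′ to 3′ on the strand of the gene, with every CpG in capitals. The build of the peak list is not named in it, and its start sites have other coordinates than GRCm38.p6 at 340 of the 346 matched peaks. A RefSeq start was therefore given to a peak only where the distance between a pair of starts was the same in both sources and no other pair of that gene had it. Arhgap32 promoter 1 (chr9:32032053-32032352, + strand) held 38 CpGs and promoter 3 (chr9:32224025-32224324) held 2. Cbfa2t3 promoter 1 (chr8:122699060-122699359, - strand) held 10 and promoter 2 (chr8:122678126-122678425) held 53. Runx1 promoter 1 (chr16:92826025-92826324, - strand) held 2 and promoter 2 (chr16:92697280-92697579) held 35. Srebf1 promoters 1, 2 and 3 (chr11:60222532-60222831, chr11:60220578-60220877 and chr11:60210422-60210721, - strand) held 17, 14 and 36.
Arhgap32 promoter 1: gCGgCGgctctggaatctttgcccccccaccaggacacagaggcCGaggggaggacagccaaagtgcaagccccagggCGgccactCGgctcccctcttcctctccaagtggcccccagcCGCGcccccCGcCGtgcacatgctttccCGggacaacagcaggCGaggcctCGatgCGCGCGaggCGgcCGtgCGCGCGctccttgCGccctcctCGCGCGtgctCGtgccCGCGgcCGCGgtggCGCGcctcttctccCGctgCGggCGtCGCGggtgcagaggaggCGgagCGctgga
Arhgap32 promoter 3: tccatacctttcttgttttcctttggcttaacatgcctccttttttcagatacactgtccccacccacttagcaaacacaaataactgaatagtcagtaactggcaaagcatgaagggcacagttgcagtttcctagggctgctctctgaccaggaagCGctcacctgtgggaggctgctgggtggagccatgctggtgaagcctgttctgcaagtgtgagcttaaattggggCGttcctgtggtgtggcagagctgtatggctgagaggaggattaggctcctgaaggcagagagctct
Cbfa2t3 promoter 1: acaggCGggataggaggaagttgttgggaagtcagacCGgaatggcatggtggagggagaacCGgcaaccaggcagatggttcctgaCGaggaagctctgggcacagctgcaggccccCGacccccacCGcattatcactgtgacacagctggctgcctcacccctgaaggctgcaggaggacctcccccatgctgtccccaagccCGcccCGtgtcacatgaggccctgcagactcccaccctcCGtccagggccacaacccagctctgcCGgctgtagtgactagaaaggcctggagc
Cbfa2t3 promoter 2: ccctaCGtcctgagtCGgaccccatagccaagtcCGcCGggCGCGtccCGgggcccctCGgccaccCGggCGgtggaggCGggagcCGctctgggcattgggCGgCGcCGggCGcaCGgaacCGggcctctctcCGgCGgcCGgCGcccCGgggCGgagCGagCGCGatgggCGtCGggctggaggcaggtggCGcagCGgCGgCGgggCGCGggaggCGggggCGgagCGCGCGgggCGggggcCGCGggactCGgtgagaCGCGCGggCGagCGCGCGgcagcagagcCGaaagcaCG
Runx1 promoter 1: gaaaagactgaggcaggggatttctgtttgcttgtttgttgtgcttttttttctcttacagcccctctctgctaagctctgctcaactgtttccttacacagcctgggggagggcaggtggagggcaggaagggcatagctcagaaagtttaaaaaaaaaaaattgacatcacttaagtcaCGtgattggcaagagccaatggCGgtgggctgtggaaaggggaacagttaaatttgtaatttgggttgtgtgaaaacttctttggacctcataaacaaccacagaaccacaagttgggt
Runx1 promoter 2: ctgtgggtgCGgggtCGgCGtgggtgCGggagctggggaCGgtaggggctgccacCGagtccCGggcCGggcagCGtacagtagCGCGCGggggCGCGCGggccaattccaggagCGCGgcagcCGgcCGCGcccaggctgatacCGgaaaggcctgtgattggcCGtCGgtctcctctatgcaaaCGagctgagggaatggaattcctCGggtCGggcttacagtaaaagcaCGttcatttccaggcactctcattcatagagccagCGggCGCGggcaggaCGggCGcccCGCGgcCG
Srebf1 promoter 1: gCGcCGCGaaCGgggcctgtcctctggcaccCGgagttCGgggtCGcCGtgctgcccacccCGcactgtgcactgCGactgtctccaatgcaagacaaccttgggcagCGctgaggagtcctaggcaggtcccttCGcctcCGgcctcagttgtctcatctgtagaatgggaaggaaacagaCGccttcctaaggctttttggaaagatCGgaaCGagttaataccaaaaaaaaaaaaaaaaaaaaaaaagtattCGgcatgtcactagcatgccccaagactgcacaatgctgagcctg
Srebf1 promoter 2: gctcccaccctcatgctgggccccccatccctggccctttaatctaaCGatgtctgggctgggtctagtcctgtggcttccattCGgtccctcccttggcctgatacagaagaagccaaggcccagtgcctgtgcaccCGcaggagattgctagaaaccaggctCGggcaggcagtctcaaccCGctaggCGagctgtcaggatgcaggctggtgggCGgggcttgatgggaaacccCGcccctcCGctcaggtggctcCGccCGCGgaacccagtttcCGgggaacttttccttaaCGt
Srebf1 promoter 3: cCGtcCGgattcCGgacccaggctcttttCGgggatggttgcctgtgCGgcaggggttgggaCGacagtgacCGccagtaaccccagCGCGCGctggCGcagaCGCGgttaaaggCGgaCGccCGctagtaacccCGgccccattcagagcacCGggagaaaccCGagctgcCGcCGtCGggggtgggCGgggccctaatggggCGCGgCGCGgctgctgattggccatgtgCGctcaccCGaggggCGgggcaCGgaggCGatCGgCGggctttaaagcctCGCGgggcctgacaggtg

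In Arhgap32, Cbfa2t3 and Runx1, the CpG-rich window was the one whose peak was lower in KLG4m/m cells. The peak of Runx1 promoter 1 lies 730 bp from its start and so outside the printed window. The log2 fold change (KLG4m/m over KL) was -3.24 at Arhgap32 promoter 1 and 0.17 at promoter 3. It was -1.10 at Cbfa2t3 promoter 2 and 0.67 at promoter 1, and -0.66 at Runx1 promoter 2 and 0.38 at promoter 1. Srebf1 had another pattern, since promoter 2, with the fewest CpGs of its promoters, was the one that was higher (1.20) beside 0.00 at promoter 1 and -0.07 at promoter 3. Letters of common promoter elements were searched on both strands. No window held TATAAA, which 13.6% of the 32851 RefSeq promoter windows held, and CCAAT, in 37.4% of all windows, was found in Arhgap32 promoter 3, Cbfa2t3 promoter 2, both Runx1 windows and Srebf1 promoters 1 and 3. The letters GGGCGG, in 35.7% of all windows, occurred 5 times in Cbfa2t3 promoter 2, 3 times in Srebf1 promoter 2, 2 times in Srebf1 promoter 3 and 1 time each in promoter 1 of Arhgap32 and of Cbfa2t3. TGTGGT, in 16.8% of all windows and the core bound by RUNX factors, occurred 2 times in Runx1 promoter 1 and 1 time in Arhgap32 promoter 3. CACGTG, in 7.15% of all windows, occurred only in Runx1 promoter 1 of these 9 windows.

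A pair of promoters could be matched to RefSeq in this way in 164 genes, with 346 peaks. Their windows held a median of 16 CpGs, against 7 over all RefSeq windows. The CpG-richer promoter of the outermost matched pair had more H3K4me3 in 104 of the 158 genes with unequal counts, and it lay upstream in 101. Among the 28 matched genes whose promoters changed by different amounts (test below), the log2 fold change was lower at the CpG-richer promoter in 19 and higher in 9, with a median difference of -0.68. Among all 158 genes these counts were 85 and 73, with a median difference of -0.04. Where the pair differed by 10 CpGs or more, the CpG-richer promoter had the lower change in 15 of 19 genes past the test and in 54 of 97 genes in all. The test covers all promoter peaks of a gene, and the CpG difference only the outermost matched pair. Srebf1 counts among the 15 through promoters 1 and 3 (difference -0.07), although the promoter that rose was promoter 2. Besides Arhgap32, Cbfa2t3 and Runx1, the 15 included Chn1 (43 against 5 CpGs, difference -1.61), a Rac GTPase-activating protein, Lmo4 (52 against 31, -1.16), a LIM-only transcriptional cofactor, and Sema6b (29 against 6, -1.04), a semaphorin. Fam53b (30 against 4, 1.60) and Trak1 (41 against 14, 1.01), an adaptor for mitochondrial transport, went the other way. These 5 genes were also named after their values were seen. The counts describe the genes that could be matched, which were not chosen at random.

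**Figure D1:**
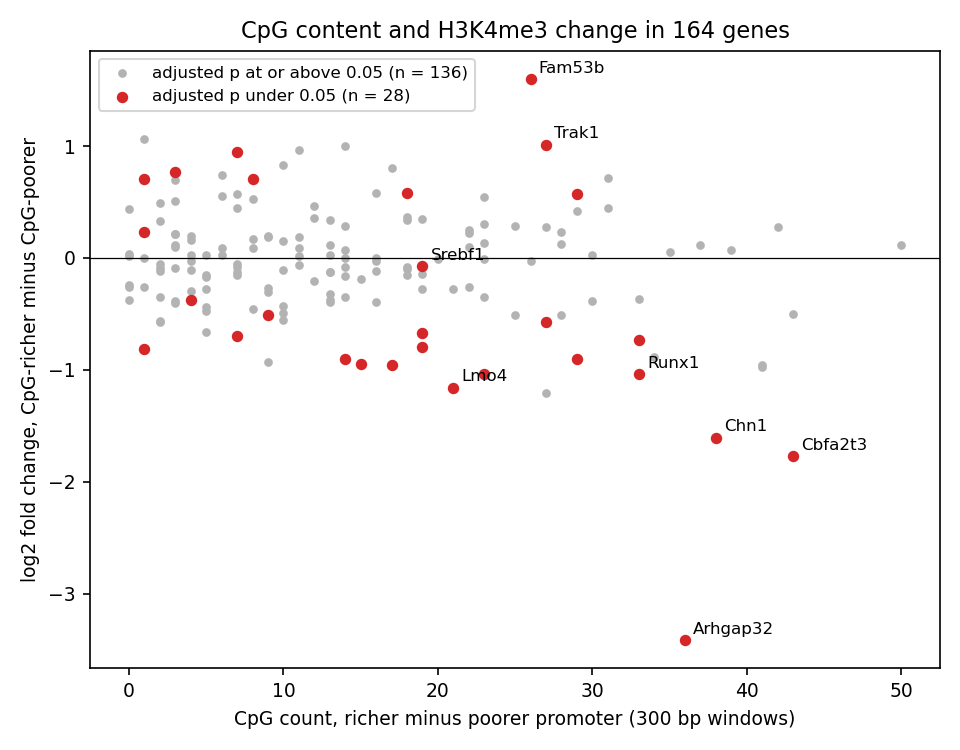
Difference in CpG count between the CpG-richer and the CpG-poorer promoter of the outermost matched pair (x axis, CpGs per 300 bp window) against the difference of their log2 fold changes (KLG4m/m over KL, y axis). Each point is 1 of 164 genes, red where the promoters of the gene changed by different amounts at adjusted p under 0.05. In red, 19 genes lie below 0 and 9 above.

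The layout of the promoters varied widely. The outermost starts were a median of 16352 bp apart, with quartiles of 4578 and 51810 bp and a range of 1009 to 1704765 bp. Most genes (1040) had 2 promoter peaks, 184 had 3 and 71 had 4 or more. Peaks were 400 bp wide, and 50.2% of them lay over their annotated start. In 65 genes, all with starts under 2500 bp apart, the peaks shared a single annotated start and could be the flanks of one promoter, while 1230 genes had at least 2 annotated starts. The widest genes were Dlg2, which encodes a synaptic scaffold protein, Pde4d, a cyclic AMP phosphodiesterase (810138 bp), and Camta1, a calmodulin-binding transcription activator (753618 bp), followed by Fhit, a tumor suppressor at a fragile site (708612 bp), and Kcnip4, a potassium channel partner (634838 bp).

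Promoters of one gene often differed in level, although many pairs were close. Levels are given as CPM, reads at the peak scaled to 1000000 reads in peaks, which can be compared between peaks because all have the same width. Alternative promoters had a median of 24.9 CPM, against 45.5 at the other promoter peaks within 1 kb. Between the outermost promoters, the stronger had a median of 2.2 times the level of the weaker (quartiles 1.39 and 4.16), at least 10 times in 102 genes and under 1.5 times in 390. The upstream promoter was the stronger in 813 genes and the downstream one in 482. The ratio was 1.54 in genes with starts less than 2500 bp apart, 1.70 from 2500 to under 10000 bp and 2.87 at 10000 bp or more. Dlg2 promoter 1 held 90.5% to 92.4% of the promoter reads of its gene, and Gnas, which encodes the stimulatory G protein subunit and is imprinted, had 89.5% to 95.5% at promoter 2. At the opposite end, the reads of Akt1, a growth-signalling kinase, were split almost evenly, with 47.9% to 50.9% at promoter 1. Frmd4b, with 6 promoter peaks, and Nav2, a neuron navigator gene with 9, each had 1 dominant peak. Nav2 promoter 3 held 40.8% to 52.0% of its reads, and the other 8 held at most 16.5% each. Foxp1, a forkhead factor with 7 promoter peaks, instead had 4 peaks of similar level at 34.7 to 45.1 CPM in KL cells. The other genes with the most promoter peaks were Tns1, a tensin of focal adhesions, with 8, and Tmcc3 with 7.

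The strongest promoter was the same in all 4 libraries in 1046 of the 1295 genes (80.8%). In 199 genes the libraries of a group did not agree on it or were tied, and in 50 genes both KL libraries had one strongest promoter and both KLG4m/m libraries another.

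Single promoter peaks were tested first. Of the 2958 peaks, 124 (4.19%) were higher and 228 (7.71%) lower in KLG4m/m cells (edgeR quasi-likelihood test, adjusted p under 0.05 over all listed peaks). Over all 35486 peaks, 3.10% were higher and 5.52% lower, and over the 14115 other promoter peaks within 1 kb these shares were 2.62% and 8.59%. The median log2 fold change was -0.01 at alternative promoters and 0.01 at all peaks. By gene, 101 genes had only higher peaks among those past the threshold, 206 only lower peaks, 8 both and 980 none. In most of the genes with a call the call was at a single promoter, since 278 of the 315 had 1 called peak. With most genes at 2 promoter peaks and few peaks called, single calls are likely. Over all 1295 genes, the log2 fold changes of the outermost promoters had a Pearson r of 0.21. Values are relative to the reads in peaks of each library, so a change of H3K4me3 everywhere at once would not be seen. With DESeq2, 5 peaks were higher and 31 lower, and with either KLG4m/m library left out none passed, although 205 to 209 were higher and 288 to 338 lower at an unadjusted p under 0.05.

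Few genes changed along their whole set of promoters. All promoter peaks were higher in 11 genes and all lower in 9. The 11 included Bank1, a B-cell adaptor whose peaks share 1 annotated start (from 7.80 to 18.1 CPM at promoter 1, adjusted p = 0.00099, and from 3.75 to 11.2 CPM at promoter 2, adjusted p = 0.00183, edgeR), Il1rl1, the receptor of interleukin-33 (log2 fold changes of 2.27 and 1.76 at levels under 10 CPM), Bcl11a, a zinc-finger factor (0.44 and 0.67), and Arhgdib, a GDP dissociation inhibitor abundant in blood cells (0.54 and 0.47). The 9 included Tnpo1, a nuclear import receptor (-1.45 and -0.75), Prdm2, a histone methyltransferase (-0.48 and -0.86), Gdnf, a neurotrophic factor (-0.89 and -0.80), and Eml1, a microtubule-binding protein (-0.82 and -1.51). Bank1, Il1rl1, Bcl11a, Arhgdib, Tnpo1, Prdm2, Gdnf and Eml1 were chosen for mention after their values were seen.

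Bank1 and Arhgdib are genes of blood cells, and the sums of the epithelial and immune markers differed between the groups. Those of the endothelial and fibroblast markers overlapped. The epithelial markers (9 of 10 with a peak, Sftpc without) summed to 516 to 528 CPM in KL and 414 to 438 CPM in KLG4m/m libraries. Of their 25 peaks, 0 were higher and 4 lower, among them the Epcam promoter (41.9 to 22.9 CPM). The median log2 fold change of these peaks was -0.28, but not all fell. The Krt18 and Krt19 promoters had log2 fold changes of 0.15 and 0.12, neither past the threshold. Over all listed peaks, 3.10% were higher and 5.52% lower, the shares to set beside the small counts of each marker list. The immune markers (7 of 8 with a peak, Cd79a without) summed to 305 to 313 CPM in KL and 394 to 399 CPM in KLG4m/m libraries, with 3 of 18 peaks higher, Itgam and Spi1 among them, and 0 lower. The endothelial markers summed to 128 to 152 CPM and 123 to 142 CPM, with 0 of 11 peaks higher and 1 lower, in an intron of Tek (log2 fold change -1.01, adjusted p = 0.0357). The fibroblast markers (3 of 5 with a peak, Col1a2 and Col3a1 without) summed to 64.4 to 71.7 CPM and 69.3 to 73.1 CPM, with 1 of 4 peaks higher, at Pdgfrb (log2 fold change 1.29, adjusted p = 0.0305, edgeR), and 0 lower. A different make-up of the sorted cells and a different mark per cell cannot be told apart in these libraries, and the part of the make-up in any result below was not tested. The Gpx4 promoter itself had 242 and 236 reads in KL and 304 and 301 reads in KLG4m/m libraries (log2 fold change 0.40, adjusted p = 0.00854, edgeR). It lies outside the exons that Dre removes, so it does not check the deletion.

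The question particular to these genes was whether their promoters changed by different amounts, which was tested as an interaction of promoter and group within each gene (edgeR diffSpliceDGE, F test per gene). The promoters changed by different amounts in 148 of the 1295 genes (11.4%). The share was 11.5% over all 1311 genes with 2 or more promoter peaks, but 1295 of these are the same genes, so the 2 shares could hardly differ. Over all 7617 genes with 2 or more peaks of any kind it was 9.32%, near the 11.4%. That set also holds the 1295 genes and was tested over all listed peaks, so it is not a separate or like background. Of the 148, 93 had only lower peaks past the threshold, 26 only higher, 8 both and 21 none. The outermost promoters had log2 fold changes of opposite sign in 105 of the 148 and in 572 of all 1295 genes. The stronger promoter of the outermost pair had the higher log2 fold change in 100 of the 148 genes, and the downstream one in 93. Over all genes these counts were 696 and 713, with median differences of 0.05 each. A call at one promoter was not enough to separate it from its neighbours, since 163 of the 278 genes with 1 called peak did not pass this test.

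**Figure D2:**
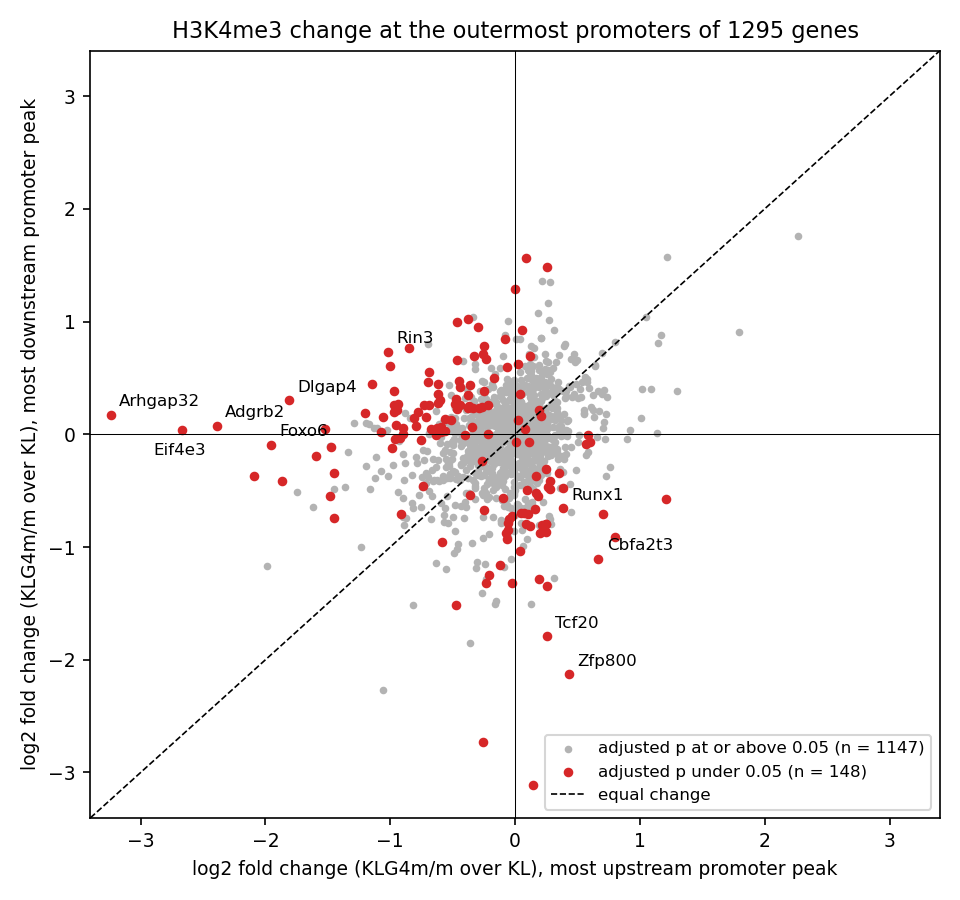
Log2 fold change of H3K4me3 (KLG4m/m over KL) at the most upstream (x axis) and the most downstream (y axis) promoter peak of each of 1295 genes. The 148 genes past the test within genes are red, the dashed line marks equal change, and the genes farthest from it, such as Arhgap32 (-3.24 and 0.17), lie near an axis, where one promoter changed and the other had a value near 0.

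The share past the test was also counted by layout, with no test between classes. The test was passed by 17 of 214 genes (7.94%) with starts less than 2500 bp apart, 24 of 304 (7.90%) from 2500 to under 10000 bp and 107 of 777 (13.8%) at 10000 bp or more. It was passed by 100 of 1040 genes (9.62%) with 2 promoter peaks, 34 of 184 (18.5%) with 3 and 14 of 71 (19.7%) with 4 or more. Only 1 of the 65 genes with a single annotated start passed. The separate parts of distance, number and level were not tested. The outcome also depended on the test. With 1 test of the outermost pair, DESeq2 called 9 genes and limma on the log2 ratio 12, against 148 here, and leaving out 1 library gave 40 to 116, the lowest without KLG4m/m replicate 4. Of the 5 genes with the most promoter peaks, only Frmd4b passed (adjusted p = 0.0478), and of the 5 widest, only Camta1 (adjusted p = 0.0418, edgeR).

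**Figure D3:**
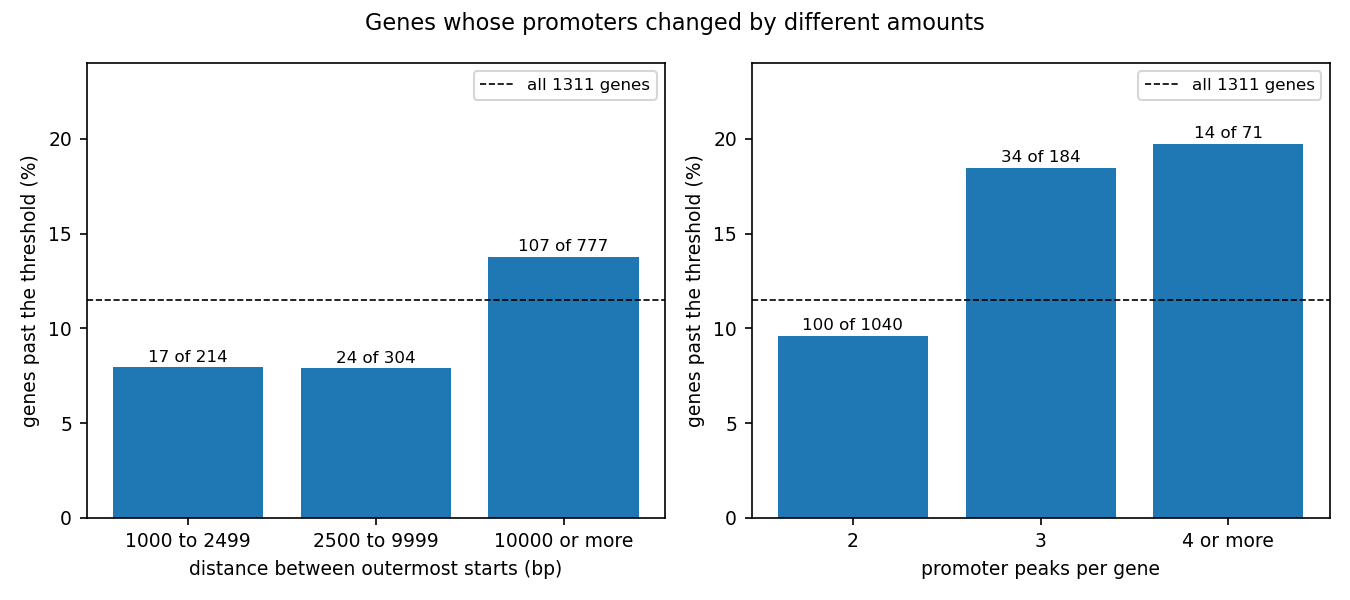
Percent of genes whose promoters changed by different amounts, by the distance between the outermost starts (left) and by the number of promoter peaks (right). Numbers above the bars are genes past the test of all genes in the class. The dashed line is the share over all 1311 genes (11.5%), of which 1295 are the genes shown.

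Alternatives per gene were run for 40 of the genes selected for description, not for all 148. DESeq2 and limma tested 1 pair of promoters per gene there, not all of them. The pair had the highest and the lowest log2 fold change among promoters of at least 10 CPM in KL or in KLG4m/m libraries. In genes with 3 or more promoter peaks, this choice from the same libraries favours a pass with DESeq2 and limma. Among these 40, the difference passed in every alternative in which both peaks could be tested in 6, which were Arhgap32, Eif4e3, Adgrb2, Tcf20, Foxo6 and Rin3. Arhgap32, Eif4e3 and Adgrb2 could not be tested at a mean of at least 10 CPM. In 5 of the 6 genes 1 promoter was lower while another strong promoter did not pass the test of single peaks. Arhgap32 encodes a GTPase-activating protein. At its promoter 1 (chr9:31943538-31943938 in the peak list), 33 and 38 reads in KL libraries stood against 2 and 5 in KLG4m/m libraries, that is 10.2 ± 1.03 and 1.06 ± 0.68 CPM (SD, n = 2). At promoter 3, 191903 bp downstream, the reads were 55, 65, 60 and 70. The groups did not overlap at promoter 1, which selection by the largest difference makes likely, and did at promoter 3. The difference between the promoters was 3.41 ± 0.48 (SE, log2, adjusted p = 7.69e-07, edgeR). The weak promoter 2 between them had 7 and 8 reads in KL and 17 and 18 in KLG4m/m libraries (log2 fold change 1.27, adjusted p = 0.0651).

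Eif4e3 encodes a cap-binding protein of the eIF4E family. Its promoter 1 (chr6:99669471-99669871) had 29 and 45 reads in KL and 5 and 6 in KLG4m/m libraries, and its promoter 2 had 244, 223, 238 and 222. The share of promoter 1 went from 10.6% and 16.8% to 2.1% and 2.6%, with a difference between promoters of 2.70 ± 0.41 (SE, log2, adjusted p = 1.1e-05, edgeR). Adgrb2, an adhesion receptor of the brain angiogenesis inhibitor family, showed the same layout over 2850 bp. Its promoter 1 (chr4:129878612-129879012) had 34 and 38 reads in KL and 8 and 5 in KLG4m/m libraries, and promoter 2 had 112, 102, 120 and 97 (difference 2.47 ± 0.40, SE, adjusted p = 2.76e-05, edgeR). In both genes the minor upstream promoter was the one that fell, and the groups overlapped at the major one.

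Foxo6, a forkhead factor of the insulin pathway, had 2 promoters of similar level in KL cells. Promoter 1 (chr4:120144540-120144940) had 78 and 96 reads in KL and 23 and 20 in KLG4m/m libraries, while promoter 2, 4264 bp downstream, had 91, 82, 80 and 76. The share of promoter 1 thus went from 46.2% and 53.9% to 22.3% and 20.8% (difference 1.86 ± 0.28, SE, adjusted p = 1.48e-05, edgeR). Tcf20, a transcriptional co-regulator, had 4 promoter peaks over 87809 bp. Here it was the most downstream, promoter 4 (chr15:82783708-82784108), that was lower, at 75 and 120 reads for KL libraries against 32 and 22 for KLG4m/m libraries. Promoter 1 had 110, 133, 145 and 134 reads, so that its share rose from 48.9% and 46.3% to 68.4% and 72.8% (difference 2.05, adjusted p = 1.89e-06, edgeR).

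Rin3, a guanine nucleotide exchange factor for Rab5, was the one of the 6 in which both promoters passed the test of single peaks, in opposite directions. Promoter 1 (chr12:102249457-102249857) had 87 and 82 reads in KL and 50 and 30 in KLG4m/m libraries (log2 fold change -1.02 ± 0.20, SE, adjusted p = 0.00217). Promoter 2, 71255 bp downstream, had 71 and 56 reads in KL and 104 and 99 in KLG4m/m libraries (0.73 ± 0.17, adjusted p = 0.00666, edgeR). Neither promoter overlapped between the groups, as calls at both make likely, and promoter 2 replaced promoter 1 as the strongest.

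**Figure D4:**
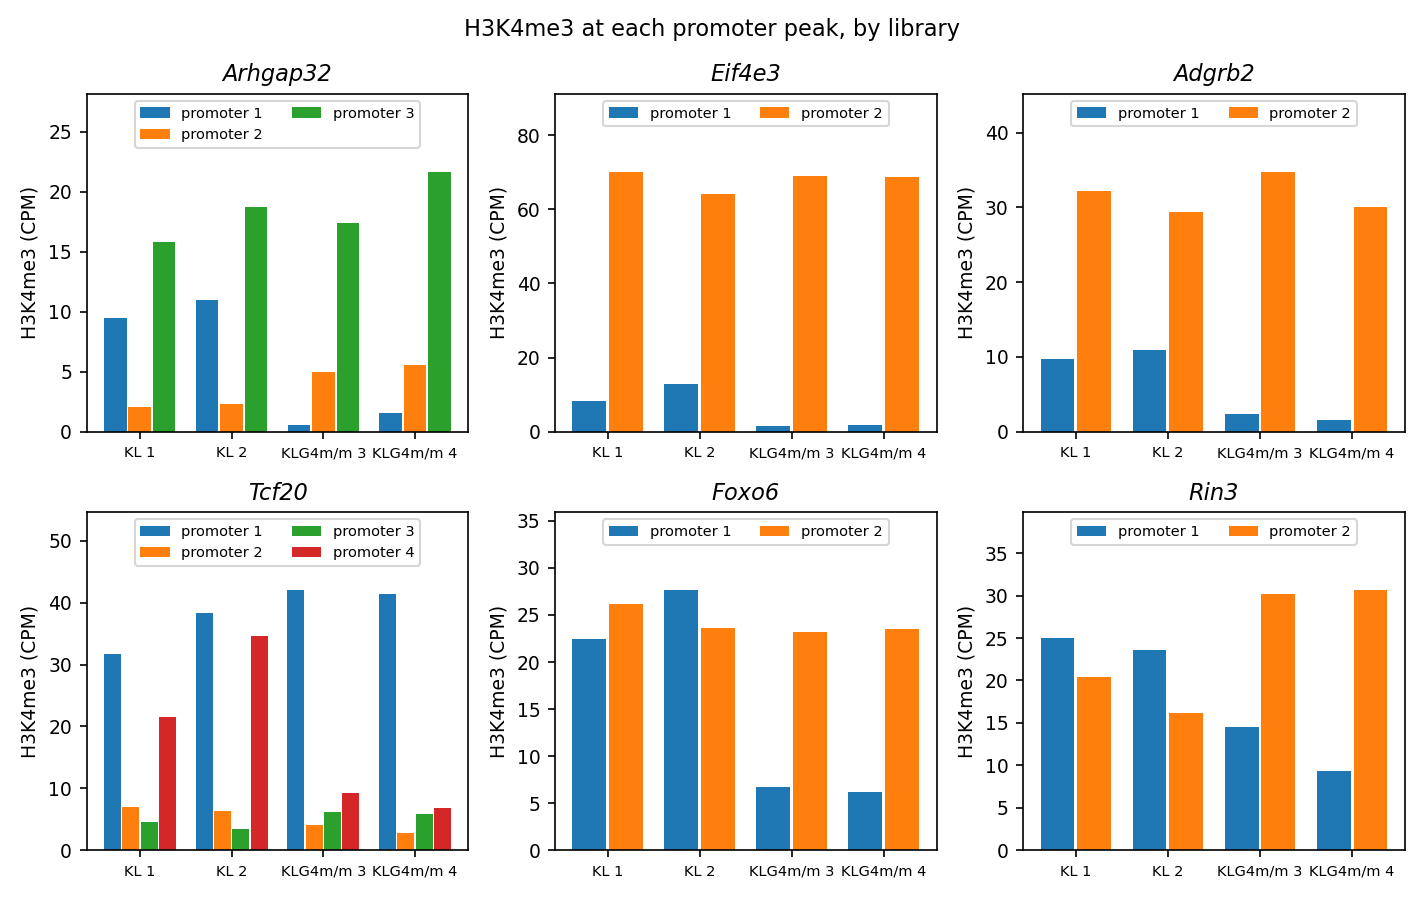
H3K4me3 (CPM) at each promoter peak of Arhgap32, Eif4e3, Adgrb2, Tcf20, Foxo6 and Rin3, in the 2 KL and the 2 KLG4m/m libraries. Bars are single libraries, coloured by promoter from upstream (promoter 1) to downstream. One promoter is low in both KLG4m/m libraries in every panel, and in Rin3 the order of the promoters is reversed.

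Of the other genes with the largest differences, Zfp800, Dlgap4, Mtus1 and Cbfa2t3 passed less firmly. Dlgap4, a scaffold protein of the postsynaptic density, had 38 and 43 reads in KL and 14 and 8 in KLG4m/m libraries at promoter 1, with 120, 133, 136 and 164 at promoter 2 (difference 2.12 ± 0.35, SE, adjusted p = 5.68e-05, edgeR). At promoter 2 of the zinc-finger gene Zfp800, the KL libraries differed between themselves, with 25 and 67 reads, against 10 in each KLG4m/m library (difference 2.57, adjusted p = 2.21e-05). In Cbfa2t3, a corepressor of blood cell development, promoter 2 fell from 69 and 99 to 46 and 29 reads and promoter 1 had 29, 24, 35 and 46 (difference 1.77 ± 0.34, adjusted p = 0.000536). Mtus1, a microtubule-associated tumor suppressor, had 6 promoter peaks, of which promoter 3 rose from 26 and 15 to 56 and 30 reads (adjusted p = 0.0203) and the others had adjusted p of 0.0683 or more. The call in Dlgap4 and in Zfp800 was lost with limma (adjusted p = 0.057 each), and that in Cbfa2t3 with limma, DESeq2 and without KLG4m/m replicate 4 (adjusted p of 0.124 at most). The call in Mtus1 was lost with limma, DESeq2 and without KL replicate 2 or either KLG4m/m replicate (adjusted p of 0.301 at most).

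Besides Rin3, 7 genes had 1 promoter past the threshold higher and another lower. Runx1, a transcription factor of blood formation that is also expressed in epithelia, had 140 and 141 reads at its distal promoter 1 in KL and 176 in each KLG4m/m library (log2 fold change 0.38 ± 0.12, SE, adjusted p = 0.046). At its proximal promoter 2, 127890 bp downstream, 193 and 171 reads in KL stood against 111 in each KLG4m/m library (-0.66 ± 0.13, adjusted p = 0.00199, edgeR). The groups overlapped at neither promoter, as calls at both make likely. The difference between the promoters was 1.04 ± 0.18 (adjusted p = 7.34e-05, edgeR), lost with DESeq2 and limma (adjusted p of 0.129 at most). This switch ran beside the immune marker sums of 305 to 313 CPM in KL and 394 to 399 CPM in KLG4m/m libraries given above, whose part in it was not tested.

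Atxn7, a subunit of the SAGA coactivator, went from 108 and 113 to 76 and 55 reads at promoter 1 and from 97 and 106 to 143 and 127 at promoter 2. Sun2, an inner nuclear membrane protein that links the nucleus to the cytoskeleton, went from 263 and 318 to 229 and 215 reads at promoter 1 and from 107 and 110 to 166 and 171 at promoter 2, only 2267 bp away. Slc28a2, a concentrative nucleoside transporter, went from 59 and 72 to 34 and 44 at promoter 1 and from 74 and 97 to 125 and 116 at promoter 2. In these 3 genes the groups overlapped at neither promoter, which their selection by calls in both directions makes likely. The share of all peaks without overlap was not counted. The differences were 1.16, 1.02 and 1.24 on the log2 scale (adjusted p of 0.000262, 4.82e-05 and 0.00152, edgeR). These calls were lost with DESeq2 (adjusted p of 0.137, 0.0935 and 0.226) and with limma (0.057, 0.0691 and 0.057), and that of Slc28a2 also without KLG4m/m replicate 3 (0.0748). In the RNA-binding gene Celf2 promoter 2 fell from 38 and 59 to 22 reads in each KLG4m/m library and promoter 3 rose from 154 and 135 to 219 and 157. Iqsec1, an exchange factor for Arf6 with 6 promoter peaks, rose at promoter 4 (151 and 137 to 178 and 200 reads) and fell at promoter 6 (146 and 175 to 105 and 107). Tns3, a focal adhesion protein, rose at the weak promoter 3 from 5 and 3 to 16 and 15 reads and fell at promoter 2 from 129 and 125 to 92 and 65. The tests within Celf2, Iqsec1 and Tns3 gave adjusted p of 0.0011, 0.00122 and 0.00345 (edgeR). These calls were lost without KL replicate 2, and that of Celf2 also without KLG4m/m replicate 3. Those of Iqsec1 and Tns3 were also lost without KLG4m/m replicate 4, and that of Tns3 at a minimum of 10 CPM. The pair tested with DESeq2 and limma passed with neither tool in any of these genes. That pair was promoters 3 and 6 in Iqsec1 and promoters 4 and 2 in Tns3, not the promoters described here.

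Both KL libraries had one strongest promoter and both KLG4m/m libraries another in 41 genes with at least 10 CPM at both promoters, of which 20 passed the test within genes. Rin3, Runx1 and Atxn7 are among them. The change of rank was largest in share at Rin3 promoter 1 (55.1% and 59.4% in KL, 32.5% and 23.3% in KLG4m/m libraries) and at promoter 1 of Edem1, which acts in degradation of misfolded proteins from the endoplasmic reticulum. Edem1 promoter 1 had 192 and 177 reads in KL and 106 and 79 in KLG4m/m libraries, promoter 2 had 93, 80, 111 and 89, and the share of promoter 1 went from 67.4% and 68.9% to 48.8% and 47.0% (adjusted p = 0.000116, edgeR). In Edem1 the major promoter fell (log2 fold change -0.94, adjusted p = 9.01e-05), and promoter 2 had a log2 fold change of 0.27 (adjusted p = 0.307, edgeR).

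Fat1, an atypical cadherin, Pak4, a kinase of the actin cytoskeleton, Casz1, a zinc-finger factor, and Tmpo, a lamina-associated protein, had the same form, with the KL-dominant promoter lower. Fat1 promoter 2 went from 119 and 146 to 58 and 49 reads, Pak4 promoter 2 from 123 and 125 to 69 and 68, Casz1 promoter 2 from 94 and 132 to 68 and 46, and Tmpo promoter 2 from 287 and 274 to 185 and 176. Klf3, a Krüppel-like repressor, Bdp1, a subunit of TFIIIB, Ankrd28, a regulator of protein phosphatase 6, and Wiz, a zinc-finger partner of H3K9 methyltransferases, also had the KL-dominant promoter past the threshold as lower, with log2 fold changes of -0.47, -0.56, -0.62 and -0.88. In a smaller group the second promoter was the one that rose. At Ptpn6, the phosphatase SHP-1 of blood cells, promoter 2 went from 209 and 190 to 324 and 257 reads while promoter 1 had 217, 205, 200 and 188. Ripor2 rose at promoter 3 (118 in each KL library, 198 and 175 in KLG4m/m libraries), Sh2d3c, an adaptor protein, at promoter 1 (161 and 139, then 237 and 191), and Dgkz, diacylglycerol kinase zeta, at promoters 1 and 2 (log2 fold changes of 0.60 and 0.45). For Ptpn6, the immune marker sums above are the values that moved alongside. In Arhgef18, Haus1 and Tspan14 no single peak passed, and the test within genes did (adjusted p of 0.00305, 0.0234 and 0.0411). The share of the KL-dominant promoter in KL and KLG4m/m libraries did not overlap in any of the 20 genes, as their selection requires in genes with 2 peaks. The smallest gap between single libraries was at Haus1, with 55.3% and 52.2% in KL and 49.3% and 36.1% in KLG4m/m libraries. The call was lost with both DESeq2 and limma in 18 of the 20 genes, with DESeq2 alone in Edem1 (adjusted p = 0.0902), and in neither in Rin3. It was lost on leaving out any 1 library in Pak4, Ripor2 and Tspan14. It was also lost without KL replicate 1 in Dgkz and Haus1, without KL replicate 2 in Bdp1, Casz1, Dgkz, Fat1, Sh2d3c and Wiz, without KLG4m/m replicate 3 in Casz1, Ptpn6, Sh2d3c and Wiz, and without KLG4m/m replicate 4 in Arhgef18, Bdp1, Casz1, Dgkz, Fat1, Haus1 and Wiz.

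**Figure D5:**
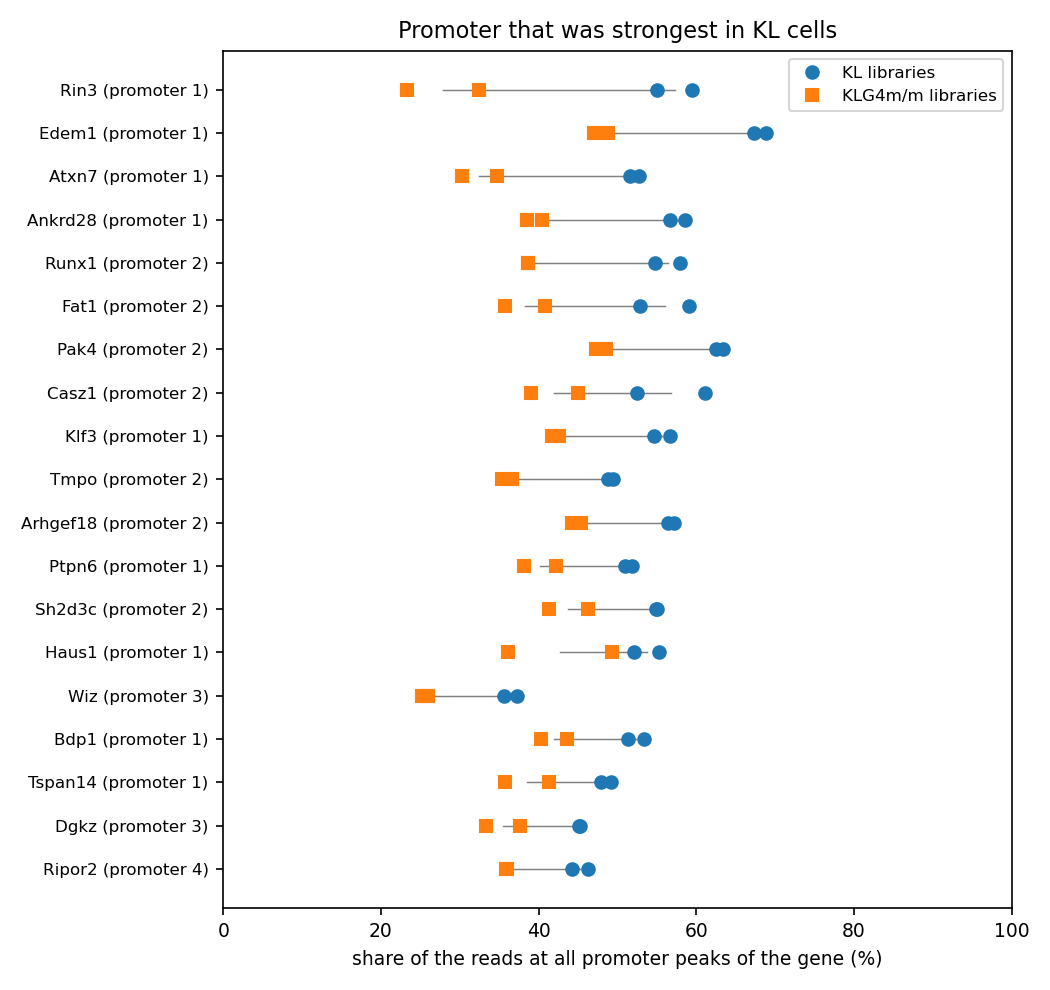
Share (%) of the reads at all promoter peaks of the gene that fell on the promoter that was strongest in KL cells, for 19 of the 20 genes whose strongest promoter differed between the groups and that passed the test within genes. Circles are KL libraries, squares KLG4m/m libraries and lines join the group means. Between the group means, Rin3 shows the widest separation and Ripor2 and Dgkz the narrowest.

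Over the 6 chosen lists of pathway genes, 5 of 51 genes (9.80%) passed the test within genes, against 11.4% of all genes with alternative promoters. Over all alternative promoters, 4.19% of peaks were higher and 7.71% lower, the shares to set beside the small counts of each list. Among 19 transcription factors with alternative promoters, 4 of 45 peaks were higher and 4 lower, and Runx1 and Tcf7 passed the test within genes. Tcf7, a mediator of Wnt signalling in T cells and progenitors, fell at promoter 1 from 59 and 99 to 32 and 40 reads beside 67, 76, 61 and 78 at promoter 2 (adjusted p = 0.0148), with KL libraries that differed between themselves. Runx2 fell at promoter 2 (82 and 69 to 46 and 49 reads, adjusted p = 0.045) and its promoter 1 had 44, 33, 21 and 28, so that the promoter share stayed between 31.3% and 36.4% at promoter 1. Runx3 rose at promoter 2 (141 and 122 to 226 and 227 reads, adjusted p = 5.34e-05) and had 33, 35, 36 and 31 at promoter 1, with a test within the gene of adjusted p = 0.0551. The glucocorticoid receptor gene Nr3c1 rose at its minor promoter 1 (67 and 65 to 107 and 103 reads, test within the gene 0.0551). Nkx2-1, the lineage factor of lung epithelium, had 72, 63, 61 and 49 reads at promoter 1 and 69, 69, 57 and 73 at promoter 2, neither past the threshold. Foxa1, an epithelial pioneer factor, fell at promoter 2 (74 and 79 to 49 and 44 reads, adjusted p = 0.0268) with 85, 70, 88 and 78 at promoter 1 (test within the gene 0.032), beside the lower epithelial marker sums in the KLG4m/m libraries. The calls in Tcf7 and Foxa1 were lost with DESeq2, with limma, and without KL replicate 2 or either KLG4m/m replicate (adjusted p of 0.454 and 0.621 at most).

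Among 8 tumor suppressors and growth signalling genes, 2 of 21 peaks were higher and 4 lower, and Ctnnd1, the cadherin partner p120-catenin, passed the test within genes. Its promoter 1 went from 56 and 46 to 27 and 25 reads and its promoter 2, next to it, had 47, 49, 62 and 44 (adjusted p = 0.0478, lost on leaving out any 1 library). Stk11, the gene floxed in both groups, rose at promoter 2 (197 and 173 to 246 and 299 reads, adjusted p = 0.0014) with 284, 334, 341 and 337 at promoter 1, and its test within the gene gave an adjusted p of 0.0636. The methods place Gpx4 close to Stk11, so only KLG4m/m mice carry the engineered m allele near this gene. The part of that allele in these values was not tested. Igf1r, the receptor of insulin-like growth factor, rose at promoter 2 (177 and 175 to 243 and 225 reads) with 161, 147, 151 and 144 at promoter 1 (test within the gene 0.0772). Rassf1, whose isoforms A and C start at separate promoters, had 41.6% to 44.6% of its reads at promoter 1 in all 4 libraries.

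Among 5 lipid metabolism genes, 1 of 12 peaks was higher and 0 lower by edgeR, against 1 of the 5 past the test within genes. That gene was Srebf1, which encodes SREBP-1, a regulator of fatty acid synthesis. Promoter 2 had 112 and 105 reads in KL and 240 in each KLG4m/m library, which took its share from 21.3% and 18.1% to 36.6% and 36.2%, with promoters 1 and 3 at 249, 270, 238 and 262 and at 166, 204, 178 and 161 reads. Srebf1 had the smallest adjusted p of all 1295 genes (7.07e-07, edgeR). DESeq2 and limma tested only promoters 2 and 3, the pair with the largest difference, which favours a pass. They gave adjusted p of 0.0174 and 0.057. Acacb, acetyl-CoA carboxylase 2, Lpin2, a phosphatidate phosphatase, and Pld1, phospholipase D1, had no peak past the threshold, with their main promoters at 63.2% to 70.1%, 63.6% to 74.2% and 74.8% to 79.3% of reads. Among 5 redox and iron genes, 1 of 11 peaks was lower, at promoter 1 of Bach1, a heme-regulated repressor (151 and 196 to 130 and 91 reads, adjusted p = 0.0126, test within the gene 0.0624). Slc3a2, a subunit of the cystine importer, Ncoa4, the ferritinophagy receptor, and Nfe2l1 kept their strongest promoter at 55.4% to 60.8%, 70.6% to 73.2% and 63.6% to 69.8%. Among 10 genes of the cytoskeleton and second messengers, 0 of 28 peaks were higher and 1 lower by edgeR. Plec, the linker plectin, with 4 promoters, had 36.0% to 41.3% of its reads at promoter 3. The median log2 fold change of the alternative promoters was 0.03, -0.01, -0.06, 0.06 and -0.10 in these 5 lists, beside 0.01 over all peaks. Among 4 chromatin regulators (median 0.05), 1 of 12 peaks was lower, at promoter 2 of the H3K36 demethylase gene Kdm2b (158 and 224 to 120 and 106 reads, test within the gene 0.0046), a call lost with DESeq2, limma and without KL replicate 2 or either KLG4m/m replicate (adjusted p of 0.454 at most), while the 5 promoters of Dnmt3a, a de novo DNA methyltransferase, had log2 fold changes of 0.05 to 0.21.

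Spi1, the myeloid factor PU.1 and one of the immune markers, rose at promoter 1 (149 and 140 to 178 and 197 reads, log2 fold change 0.43, adjusted p = 0.0262, edgeR). At promoter 2 it had 98 and 97 reads in KL and 139 and 114 in KLG4m/m libraries, also a log2 fold change of 0.43 (adjusted p = 0.0592), and the test within the gene gave an adjusted p of 0.993. Pdgfra, a fibroblast marker, had log2 fold changes of -0.13 and -0.06.

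By level, the median log2 fold change of alternative promoters was -0.10 under 10 CPM, -0.12 at 10 to 20 CPM, -0.03 at 20 to 40, 0.03 at 40 to 80 and 0.11 at 80 CPM or more, and at the other promoter peaks it went from -0.12 to 0.08 over the same classes. The share of lower peaks at alternative promoters was largest at 10 to 20 CPM (10.2%) and smallest at 80 CPM or more (3.43%). At the other promoter peaks it was largest at 20 to 40 CPM (14.9%) and smallest at 80 CPM or more (1.84%). Over all peaks the same 2 classes were the extremes (9.59% and 2.01%). After a level-dependent normalization, chosen after the data were seen, 159 genes passed the test within genes, 143 peaks were higher and 232 lower.

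At the distance threshold, Foxa1 (1009 bp), Gm22614 (1012 bp) and Bnc1 (1013 bp) were just inside, and Slc30a2 (982 bp) and A130051J06Rik (978 bp) just outside.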

How the data were processed

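The deposited table lists H3K4me3 peaks of KL and KLG4m/m tumor cells. Per the labels and methods, 1000000 sorted cells per mouse were treated with a CUT&Tag kit in which pAG-MNase, rather than a transposase, cuts around the bound antibody. The labels write the antibody as anti-H4K4me3, and the methods mention 3 mice, while 2 libraries per group are listed. According to the methods, the sort took EpCAM+ cells lacking CD31 and CD45 (one passage writes CD45.2+ for tumor cells). The authors trimmed reads with Trim Galore 0.6.10, aligned them with BWA 0.7.15, removed mitochondrial reads, reads of mapping quality under 30 and, with Picard 2.17.3, duplicates, called peaks with MACS2 2.2.7.1 and name HOMER 4.11.1 for assigning them to genes, although the annotation columns have the form of ChIPseeker output. The cited genome is Ensembl 94, the build of the table is not named in it, and peak positions are printed as deposited. The table holds the authors' read counts per peak, their CPM values, which were not used for tests, and a log2 fold change, F, p-value and FDR of their own comparison, which were not used. H3K27ac libraries were not analysed here. Libraries held 3244495 to 3463731 reads in peaks, of which 9.83% to 9.95% fell in alternative promoters.

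From the counts, CPM with TMM scaling (factors 0.9954 to 1.0040) were computed, and all 35486 peaks were fitted without a filter in edgeR 4.0.16 (glmQLFit with legacy = TRUE, R 4.3.3). Each peak was tested with glmQLFTest, and the promoter peaks of each gene with diffSpliceDGE (F test per gene, Benjamini-Hochberg over 1311 genes). Both are two-sided with a threshold of 0.05. The error of a difference combines the SEs of both peaks. DESeq2 1.42.0 and limma 3.58.1 (log2(CPM + 1)) served as alternatives. Scripts were tested on simulated data. Groups follow the sample titles. Named genes were the 10 with the largest difference between promoters among those past the test, counting promoters of at least 10 CPM in KL or in KLG4m/m libraries. A promoter could thus be counted through the group in which it was high. Also named were all genes with promoters called in both directions and all whose strongest promoter differed between groups. So were the 5 with most peaks, the 5 widest, members of chosen lists and those next to the distance threshold. Any other named gene was picked after its values were seen. The genes, lists and rule were chosen with earlier results of these data known. RefSeq sequences were matched by symbol for 1027 genes. A few named items are not reported here.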

Additional observations from a re-analysis of the deposited data

How the results depend on the processing

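No paired analysis was possible because the groups share no replicate numbers (1 and 2 in KL, 3 and 4 in KLG4m/m). Of 124 higher and 228 lower alternative promoters, DESeq2 with its size factors called 5 and 31. Leaving out 1 library gave 0 to 82 higher and 0 to 177 lower, with 0 in both directions without KLG4m/m replicate 3 and without replicate 4. The 148 genes whose promoters changed by different amounts became 49 with the Simes test, 12 with limma on the ratio of the outermost pair, 9 with the DESeq2 interaction for that pair and 40 to 116 on leaving out 1 library (68 without KL replicate 2, 75 without KLG4m/m replicate 3, 40 without KLG4m/m replicate 4). The cause of these differences was not tested. Total-read scaling gave 148, all listed peaks 193, the filter at 10 CPM 114, summed close peaks 145 and starts at least 2500 bp apart 131. Level-dependent normalization (159) and edgeR with bias-adjusted deviances (151) were added after the data were seen. The difference was recomputed one by one for 40 genes. Of these, 30 were no longer past the threshold with DESeq2 and 32 with limma. Both tested 1 pair of promoters per gene, chosen by the largest difference in these libraries. The call was lost in 7 without KL replicate 1, 18 without KL replicate 2, 15 without KLG4m/m replicate 3 and 19 without KLG4m/m replicate 4. At 10 CPM, 2 were lost and 31 had the same outcome. The rest could not be tested there, Arhgap32, Eif4e3, Adgrb2, Dlgap4 and Zfp800 among them. None of these 40 changed sign in any of these alternatives. With 2 libraries per group, calls near the threshold rest on single libraries.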
